A study of Mus musculus with 31 samples.

Results

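The genes of 3 matrix and adhesion families, the collagens, the laminins and the integrins, were followed from embryonic stem cells (ESCs) to cortex-like cultures and set against mouse cortex. The set held 79 autosomal genes out of 17484 features listed in at least 1 of the 5 stage tables, of which 41 were collagens, 11 laminins and 27 integrins. Members were taken by gene symbol alone, though the choice was made with earlier results of these data known. The X-linked Col4a5 and Col4a6 were left out. The tables listed 73 members in ESCs, 73 at day 12, 77 at day 21, 77 in P0 cortex and 75 in E13.5 cortex.

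Collagens are secreted proteins whose chains wind into a triple helix. Fibrillar collagens form the tensile fibres of connective tissue, collagen IV forms the sheet of every basement membrane, and associated collagens decorate or anchor these polymers. Laminins are heterotrimers of an alpha, a beta and a gamma chain that start the assembly of a basement membrane. Integrins are heterodimers of an alpha and a beta chain that bind cells to these proteins and to fibronectin and vitronectin. In the developing cortex the pial basement membrane, made by meningeal, vascular and neural cells, anchors the endfeet of radial glia, the progenitors that span the cortical wall.

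RNA was measured in F1 hybrids of the strains B6 (C57BL/6) and JF1, in both cross directions: BJ1 hybrids have a B6 mother and JB6 hybrids a JF1 mother. Male hybrid ESCs, kept on gelatin in a serum-free medium with LIF, BMP4 and an inhibitor of GSK3, gave 4 libraries, and the same lines gave 4 at day 12 and 4 at day 21 of a cortical differentiation, with 2 libraries per cross at each stage. The hybrid cells were differentiated on Matrigel, itself a basement membrane extract, in a defined medium with B27 lacking vitamin A, and with cyclopamine, a Hedgehog pathway inhibitor, from days 2 to 10. Per the labels, cells could be moved at day 12 onto dishes coated with poly-L-lysine and laminin, and the labels do not say whether the sequenced day 21 cultures were. The in vivo samples were 7 cortex libraries at P0 (4 BJ1 and 3 JB6) and 6 dorsal telencephalon libraries at E13.5 (3 per cross), 11 of the 13 from females. The B6 parent of the ESC lines carried a transgene in which the Pou5f1 (Oct4) promoter drives GFP, and the authors' description says that this strain still held stretches of CBA genome. The in vivo hybrids came from pure strains. The labels do not say whether libraries of 1 stage and cross came from separate cultures or animals, so p-values measure the spread between libraries.

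Each value counts sense read bases that carry the B6 or the JF1 letter at a strain difference, so a gene's value depends on how many strain differences it holds, and levels are compared here between stages and never between genes. A level is the sum of both alleles per 1000000 read bases of the library, abbreviated RBM. Libraries held 5192382 to 8618253 read bases. A gene entered a comparison when it was listed at both stages and averaged 20 read bases or more per library, and a change was called at an adjusted p of 0.05 or less by edgeR's quasi-likelihood test with Benjamini-Hochberg adjustment over all genes tested.

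Markers of the labelled tissues were checked first. The summed level of 4 listed dorsal telencephalic markers (Pax6, Emx1, Hes5, Fabp7) was 69.9 to 98.3 RBM at day 21 and 49.8 to 215 at day 12, against 237 to 416 in P0 cortex and 432 to 591 in E13.5 cortex. Cultures also carried markers of other cell types, though 3 lists overlapped with cortex. Sums of 6 listed endothelial markers were 73.5 to 270 in day 12 and day 21 cultures and 48.2 to 256 in cortex. Those of 4 listed blood and microglia markers were 7.43 to 111 and 14.9 to 59.4. Choroid plexus and neural crest markers, with Foxd3 not listed in cortex, summed to 10.1 to 65.1 and 0 to 24.8. The summed level of 5 listed epithelial markers (Epcam, Krt8, Krt18, Krt19, Cldn6) was 2791 to 4678 in day 12 and day 21 cultures, against 0.704 to 21.5 in cortex. Meningeal fibroblast markers (8 genes, among them Dcn, Lum and Foxc1) summed to 413 to 1261 in these cultures and to 5.16 to 271 in cortex, and 7 listed mural and smooth muscle markers to 368 to 1555 and 8.11 to 107. Endoderm markers (7 genes, among them Sox17 and Dab2) summed to 173 to 283 in these cultures and to 15.6 to 97.9 in cortex. The cortex sums held fewer genes, 5 at E13.5 and 4 at P0. Gata4 and Foxa2 were listed at neither cortical stage, and Gata6 was not listed at P0. Neuron markers (Tubb3, Stmn2 and Tbr1, with Neurod2 added at day 21, P0 and E13.5, where it was listed) summed to 117 to 781 in these cultures. In cortex they summed to 3408 to 3789 at P0 and 753 to 1261 at E13.5. Of the epithelial, dorsal telencephalic, mural and neuron lists, Cdh1, Emx2, Rgs5, Dcx and Map2 were not analysed here.

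Some libraries stood apart from their group. The second JB6 library of the ESCs had an epithelial marker sum of 1476, the highest of the 4 ESC libraries, and the highest levels of Col4a1 and Col4a2. Its sum of 5 listed pluripotency markers was the lowest, 2126 against 3711 to 4215 in the other ESC libraries. Its mural and smooth muscle sum (162 against 19.6 to 26.5) and endoderm sum (73.0 against 8.76 to 14.2) were also the highest. Among E13.5 libraries, the second BJ1 library had the lowest meningeal marker sum and the lowest levels of Col3a1 and Col1a2, and the second JB6 library and the third had the highest Col3a1 levels. Several results that rest on these libraries are given with and without them, and not every value was so treated.

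The 3 families together took a mean of 0.322% of all read bases in ESCs, 0.972% at day 12 and 2.29% at day 21, against 0.167% in P0 cortex and 0.167% in E13.5 cortex. Collagens made up most of this increase. Their share was 0.0498% ± 0.0327 in ESCs, 0.602% ± 0.0511 at day 12 and 1.83% ± 0.288 at day 21 (SD, n = 4 each), against 0.0889% ± 0.0104 in P0 cortex (n = 7) and 0.0817% ± 0.0415 in E13.5 cortex (n = 6). Laminins took 0.204% in ESCs, 0.213% at day 12 and 0.297% at day 21, against 0.0431% in P0 cortex and 0.0400% in E13.5 cortex. Integrins took 0.0682%, 0.157% and 0.161% over the same culture stages, against 0.0346% and 0.0452% in P0 and E13.5 cortex. In each family every day 12 and day 21 library lay above every cortex library. ESC libraries lay above every cortex library for laminins and, narrowly, for integrins, and overlapped with cortex for collagens.

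**Figure D1:**
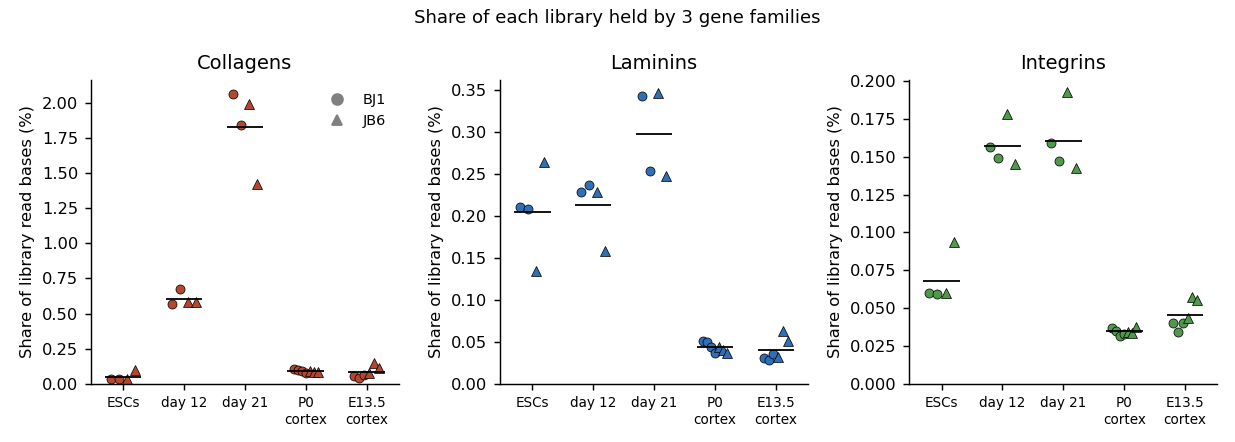
Share of each library's read bases (percent, linear axis from 0) held by the collagens, laminins and integrins, 1 point per library, circles for BJ1 and triangles for JB6, with a line at the group mean. Collagens reached a mean of 1.83% at day 21 and 0.0889% in P0 cortex, and the laminin share of ESCs, 0.204%, was already above that of every cortex library.

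Of the 55 members tested between day 12 and ESCs, 44 rose at day 12 and 6 fell, 90.9% of them, where 67.4% of all genes tested changed, 34.5% upward and 32.9% downward. The median log2 fold change was 3.57 over the members and 0.02 over all genes. Between day 21 and day 12, 36 of 60 rose and 9 fell, where 47.8% of all genes changed, 25.2% upward and 22.5% downward, with medians of 1.06 and -0.02. In the cortex, 25 of 53 rose and 13 fell at P0 against E13.5, 71.7% of them, under the 81.5% of all genes that changed, 40.1% upward and 41.4% downward, and the medians were 0.44 and -0.02. By family, 27 of 28 collagens, 6 of 10 laminins and 11 of 17 integrins rose at day 12 against ESCs, and 24 of 31, 6 of 11 and 6 of 18 rose at day 21 against day 12. Marker sums of other cell types moved with the members at day 12 against ESCs. They were 413 to 664 RBM at day 12 and 11.5 to 26.4 in ESCs for meningeal fibroblasts, 368 to 1555 and 19.6 to 162 for mural cells and smooth muscle, 200.1 to 229 and 8.76 to 73.0 for endoderm, and 2791 to 4261 and 399 to 1476 for epithelium. Ogn and Afp were not listed in ESCs, so the meningeal and endoderm sums there lack them. At day 21 the meningeal sum was 829.5 to 1261, above every day 12 library, and the part of these markers in the results was not tested. Leaving out the second JB6 library of the ESCs gave 50 calls for day 12 against ESCs, and leaving out the 3 E13.5 libraries that stood apart gave 41 for P0 against E13.5.

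Against cortex, with day 12 set beside E13.5 and day 21 beside P0, most members were higher in culture. At day 12 against E13.5, 44 of 54 members were higher in culture and 5 lower, where 80.3% of all genes changed, 40.0% upward and 40.3% downward, with median log2 fold changes of 2.74 over the members and -0.01 over all genes. At day 21 against P0, 52 of 61 were higher and 3 lower, where 83.7% of all genes changed, 42.2% upward and 41.6% downward, with medians of 2.56 and 0.00. In 50 of the 61 every day 21 library lay above every P0 library, as it did in 34.9% of all genes tested. RNA came from whole cultures and whole tissue, so fewer cells of a type and less RNA per cell cannot be told apart, and culture also differed from cortex in sex and in the B6 substrain. The epithelial, meningeal, mural and endoderm markers given above were higher in culture and the neuron markers lower than in cortex of the matched stage, and their part in the results was not tested.

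Fibrillar collagens form the fibres of skin, bone, vessel walls and meninges. 9 of the 10 tested rose at day 12 against ESCs, where 34.5% of all genes rose, and 10 of 11 were higher at day 21 than in P0 cortex and none lower, where 42.2% of all genes were higher. Col3a1, the chain of the reticular fibres of vessels and soft tissue, had 6.90, 2.91, 0.516 and 10.01 RBM in the 4 ESC libraries, 1180.2, 1701, 1621 and 1962 at day 12 and 8404, 7454, 7667 and 5133 at day 21. The cortex held 34.5 to 94.2 (median 74.1) at P0 and 3.54 to 514 (median 153) at E13.5. The 3 culture stages did not overlap one another, and all 8 day 12 and day 21 libraries lay above all 13 cortex libraries. Its log2 fold change was 8.10 ± 0.69 (SE), adjusted p = 1.3e-05, between day 12 and ESCs, 2.09 ± 0.22 (SE), adjusted p = 7.0e-06, between day 21 and day 12, and 6.80 ± 0.24 (SE), adjusted p = 3.8e-13, between day 21 and P0.

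Col1a2, a chain of collagen I, the main collagen of bone and dermis, had 3 read bases in all in the ESCs, so no fold against them is given. Its level was 123, 168, 139 and 96.5 RBM at day 12 and 1687, 1588, 1448 and 1100.1 at day 21, against 23.9 to 60.8 (median 44.5) in P0 cortex and 0.884 to 75.2 (median 28.9) in E13.5 cortex. The lowest day 21 library lay above the highest of all other stages. The log2 fold change was 3.42 ± 0.17 (SE), adjusted p = 1.9e-08, between day 21 and day 12, and 5.10 ± 0.20 (SE), adjusted p = 1.2e-12, between day 21 and P0. Col1a1, the other chain of collagen I, moved likewise, with 432, 366, 399 and 247 at day 21 and 31.5, 45.7, 44.2 and 37.2 at day 12, against 1.23 to 1.98 (median 1.41) at P0 (log2 fold change 7.93 ± 0.14 (SE), adjusted p = 3.2e-16, day 21 against P0). Its read bases came from 1 strain difference.

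The start regions of Col1a2 and Col3a1 are printed because these genes rose together in the cultures. Each is RefSeq sequence of build GRCm38.p6, from 250 bases before to 50 bases after the annotated start, 5′ to 3′ on the gene's plus strand, with the searched motifs in capitals: GGGCGG (the GC box), CCAAT and TATAAA, on either strand. Among the letters printed no 2 matches overlap. Col1a2 lies at chr6:4505368-4505667 and Col3a1 at chr1:45311288-45311587.
Col1a2: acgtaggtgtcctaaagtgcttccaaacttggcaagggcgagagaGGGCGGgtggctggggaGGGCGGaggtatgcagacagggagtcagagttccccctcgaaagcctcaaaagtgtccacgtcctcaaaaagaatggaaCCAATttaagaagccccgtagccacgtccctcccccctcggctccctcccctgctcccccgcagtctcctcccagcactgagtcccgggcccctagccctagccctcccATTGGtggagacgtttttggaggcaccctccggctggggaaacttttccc
Col3a1: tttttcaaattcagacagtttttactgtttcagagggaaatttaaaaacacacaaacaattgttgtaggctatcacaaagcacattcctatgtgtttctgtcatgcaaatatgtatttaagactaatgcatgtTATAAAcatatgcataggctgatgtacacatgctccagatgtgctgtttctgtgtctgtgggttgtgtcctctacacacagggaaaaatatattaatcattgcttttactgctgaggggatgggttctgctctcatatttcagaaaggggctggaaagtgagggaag
The Col1a2 window held 2 GGGCGG and 2 CCAAT matches and no TATAAA, while the Col3a1 window held 1 TATAAA and neither of the others. Among 32851 windows of all genes, 35.7% held GGGCGG, 37.4% CCAAT and 13.6% TATAAA, and among the 57 members with a window 31, 16 and 5 did. A match here is a description of letters and not of a binding site.

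At P0 against E13.5 the fibrillar collagens split. Col3a1 and Col1a2 did not pass the test (log2 fold changes -1.12 ± 0.59 and 0.85 ± 0.50), and E13.5 libraries spread over more than the range of P0. Without the 3 E13.5 libraries that stood apart the log2 fold changes were -0.98 for Col3a1 and 0.98 for Col1a2. Those libraries had been picked with these levels and the meningeal marker sums in view, so no call is read from leaving them out together. Leaving out 1 of the 3 at a time left Col1a2 short of the threshold each time (adjusted p = 0.0721 to 0.154 by edgeR), and Col3a1 passed without the second BJ1 library (adjusted p = 7.2e-04) and not without either JB6 one (0.180 and 0.150). Meningeal marker sums in those 3 libraries moved with Col3a1 and Col1a2, and their part in this was not tested. Col5a2, a chain of collagen V that sets fibre width, fell, at 13.2 to 19.3 (median 15.1) in P0 and 19.01 to 56.7 (median 33.5) in E13.5 libraries (log2 fold change -1.04 ± 0.13 (SE), adjusted p = 7.5e-07).

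Col2a1, the collagen of cartilage, took another course. It had 4.72, 1.68, 2.75 and 2.12 RBM in ESCs, 249, 295, 206 and 228 at day 12 and 46.8, 45.2, 84.7 and 38.9 at day 21, against 3.20 to 12.03 (median 6.60) in P0 and 71.7 to 105 (median 88.1) in E13.5 cortex. It thus peaked at day 12 in culture and stood higher at E13.5 than at P0, with no overlap between the 2 stages in either setting. The log2 fold change was -2.25 ± 0.20 (SE), adjusted p = 2.5e-06, between day 21 and day 12, and -3.58 ± 0.18 (SE), adjusted p = 2.6e-11, between P0 and E13.5. Col5a1 reached 1203 ± 197 at day 21 and 30.6 ± 5.38 in P0 cortex (SD, n = 4 and 7, log2 fold change 5.35), and Col11a1, a partner of collagen II, 17.7 ± 7.08 and 9.44 ± 1.11 (log2 fold change 0.92). Col24a1 was the fibrillar member that did not pass at day 21 against P0, at 3.86 ± 2.08 and 3.68 ± 2.56.

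Collagen IV chains form the network of basement membranes. Col4a1 had 12.2, 14.4, 12.2 and 291 RBM in ESCs, 718, 812, 731 and 560.3 at day 12 and 1719, 1407, 1832 and 1648 at day 21, against 142 to 217 (median 164) in P0 and 47.0 to 186 (median 77.7) in E13.5 cortex. Col4a2 had 7.08, 5.21, 5.67 and 235 in ESCs, 832, 889.6, 712 and 468 at day 12 and 1223, 967, 1357 and 1140.1 at day 21, against 121 to 194 (median 156) in P0 and 28.6 to 109 (median 52.4) in E13.5 cortex. For both genes 3 ESC libraries lay close together and the second JB6 library far above them, yet all 8 differentiated libraries were higher still. The rise at day 12 against ESCs was 3.70 ± 1.19 (SE), adjusted p = 0.0271, for Col4a1 and 4.34 ± 1.504 (SE), adjusted p = 0.0354, for Col4a2 on the log2 scale by edgeR. Without the second JB6 library it was 5.52 and 6.69 (adjusted p = 1.1e-08 for both). With it, the call was lost in 6 alternatives for Col4a1 and 8 for Col4a2, among them leaving out any 1 of the other ESC libraries.

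The 2 genes lie head to head on chromosome 8 and their start regions overlap, which is why both are shown. In RefSeq annotation of GRCm38.p6 the start sites are 21 bases apart, the windows share 78 bases, and the shared letters are reverse complements of each other. Col4a1 is on the minus strand at chr8:11312777-11313076 and Col4a2 on the plus strand at chr8:11312555-11312854. Capitals mark the same motifs as before.
Col4a1: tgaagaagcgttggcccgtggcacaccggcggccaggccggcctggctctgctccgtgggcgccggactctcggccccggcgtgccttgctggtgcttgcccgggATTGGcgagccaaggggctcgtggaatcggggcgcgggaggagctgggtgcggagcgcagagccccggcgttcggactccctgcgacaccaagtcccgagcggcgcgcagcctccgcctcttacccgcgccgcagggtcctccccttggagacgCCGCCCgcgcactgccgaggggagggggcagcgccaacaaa
Col4a2: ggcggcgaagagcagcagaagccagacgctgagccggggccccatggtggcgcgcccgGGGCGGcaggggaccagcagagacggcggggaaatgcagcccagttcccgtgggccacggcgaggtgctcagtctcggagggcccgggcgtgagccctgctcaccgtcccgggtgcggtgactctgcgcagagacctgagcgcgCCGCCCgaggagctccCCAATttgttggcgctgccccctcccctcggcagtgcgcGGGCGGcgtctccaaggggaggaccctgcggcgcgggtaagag
The Col4a1 window held 1 GGGCGG and 1 CCAAT match, the Col4a2 window 3 and 1, and neither held TATAAA. The levels of the pair kept a like order over the stages: both were highest at day 21, and at P0 against E13.5 both rose (log2 fold changes 1.02 ± 0.29 and 1.45 ± 0.26).

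Other basement membrane collagens differed in course. Col18a1, the source of endostatin, had 203, 241, 249 and 305 in ESCs, 1232, 1174, 853 and 730.1 at day 12 and 557, 523, 569 and 663 at day 21, against 18.7 to 33.8 (median 22.4) in P0 and 60.3 to 128 (median 88.3) in E13.5 cortex. It rose at day 12 (log2 fold change 1.75) and fell both at day 21 against day 12 (-0.80 ± 0.19 (SE), adjusted p = 0.00341) and at P0 against E13.5 (-1.81 ± 0.16 (SE), adjusted p = 3.9e-08). Col15a1, its close relative, rose instead in both, with 56.5, 56.5, 56.3 and 32.6 at day 21 and 2.47, 2.41, 7.89 and 9.51 at day 12 (log2 fold change 3.17), and 16.7 to 28.7 (median 25.6) at P0 and 1.33 to 7.42 (median 3.48) at E13.5 (2.81). Col4a3 and Col4a4, chains of the kidney glomerulus, stayed at or under 2.24 RBM on average at every stage that listed them.

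**Figure D2:**
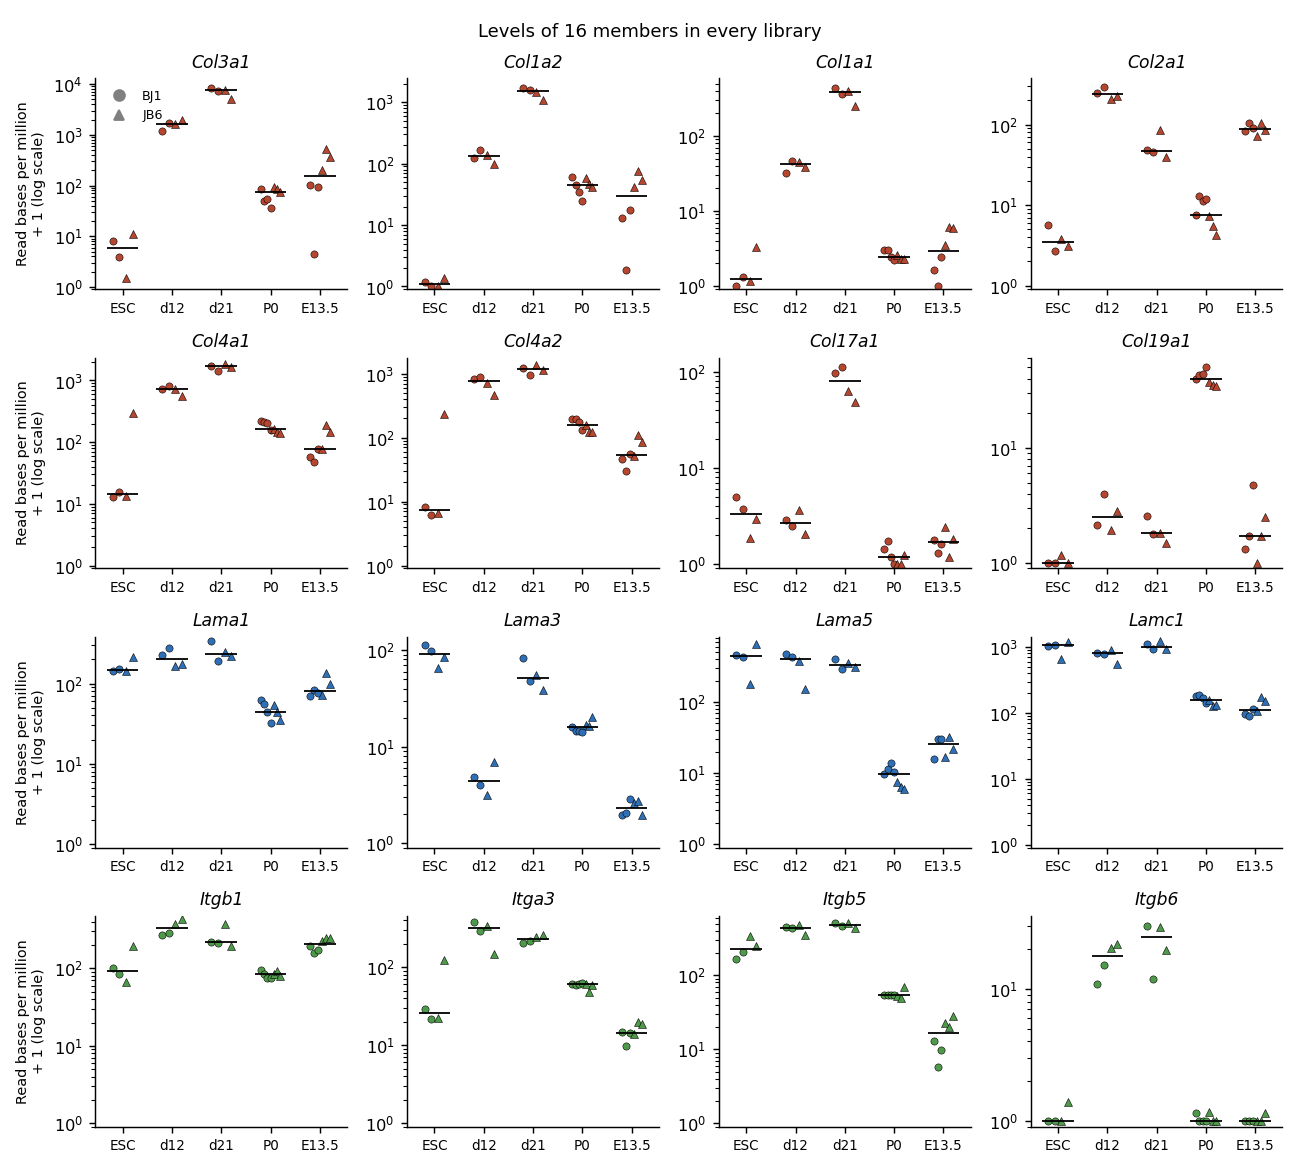
Level of 16 members in every library, in RBM plus 1 on a log axis, with ESCs, day 12, day 21, P0 cortex and E13.5 cortex from left to right, circles for BJ1, triangles for JB6 and a line at the median. The panels show the day 21 peak of Col3a1, Col1a2 and Col1a1, the single high ESC library of Col4a1 and Col4a2, and Col19a1, which was high in P0 cortex alone among the 5 stages.

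Fibril-associated collagens sit on the surface of other fibres. Collagen IX partners collagen II in cartilage, and its chain gene Col9a1 had 0.545, 0.306, 0.172 and 0 RBM in ESCs, 149, 208, 217 and 370.4 at day 12 and 33.5, 21.2, 67.5 and 15.3 at day 21, against 2.33 to 7.87 (median 6.86) in P0 and 1.18 to 4.42 (median 2.25) in E13.5 cortex. All day 12 libraries lay above all others. Col9a1 held 6 read bases in all ESC libraries together, so the size of its fitted log2 fold change between day 12 and ESCs, 9.45 ± 0.46 (SE), adjusted p = 2.5e-07, depends on the prior count. The log2 fold change was -2.85 ± 0.38 (SE), adjusted p = 2.6e-04, between day 21 and day 12. Col9a2 rose at day 12 and fell at day 21 too (log2 fold changes 1.72 and -1.19). Col9a3 stood at 1.94 ± 0.997 at day 12 and was lower in culture than in cortex at both matched stages (log2 fold changes -1.19 at day 12 against E13.5 and -1.77 at day 21 against P0).

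Col19a1, a collagen known from subsets of cortical interneurons, had 1.55, 0.806, 0.846 and 0.482 RBM at day 21 and 1.14, 2.96, 0.928 and 1.86 at day 12, against 33.7 to 48.9 (median 38.8) in P0 cortex and 0 to 3.77 (median 0.722) in E13.5 cortex. Every P0 library lay above every library of the other stages. Its log2 fold change was 5.06 ± 0.33 (SE), adjusted p = 1.6e-09, between P0 and E13.5, and -5.31 ± 0.20 (SE), adjusted p = 2.5e-13, between day 21 and P0. It was one of 3 members lower at day 21 than in P0 cortex, with Col9a3 and Itgb8. Col12a1, a collagen of tendon and fascia, rose in both settings, with 243, 234, 260.3 and 116 at day 21 and 48.0, 71.7, 56.6 and 47.2 at day 12 (log2 fold change 1.86), and 48.2 ± 6.37 at P0 and 7.95 ± 3.61 at E13.5 (SD, n = 7 and 6, 2.64). Col14a1, Col16a1 and Col22a1 were higher at day 21 than in P0 cortex (log2 fold changes 5.08, 3.31 and 2.30).

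Collagen VI forms beaded filaments beside basement membranes. Its 3 main chains rose together in culture and 6 of the 6 tested genes of the network group rose at day 21, where 25.2% of all genes rose. Col6a1 had 2.54, 1.84, 2.23 and 1.73 in ESCs, 268, 368, 257 and 336 at day 12 and 2314, 2032, 2147 and 1518 at day 21, against 28.7 to 67.5 (median 53.8) in P0 and 1.18 to 50.7 (median 18.0) in E13.5 cortex. Col6a3 had 866, 724, 737 and 433 at day 21 and 45.9, 92.9, 44.5 and 36.7 at day 12, against 7.04 to 19.8 (median 16.9) in P0 and 0 to 36.0 (median 8.98) in E13.5 cortex, where the second BJ1 library held none. Groups did not overlap between culture stages for either gene. Log2 fold changes at day 21 against P0 were 5.36 ± 0.20 (SE), adjusted p = 8.5e-13, for Col6a1, 5.26 for Col6a2 and 5.54 ± 0.22 (SE), adjusted p = 2.2e-12, for Col6a3. Col8a1 and Col8a2, network collagens of vessels and the cornea, were higher by 5.06 and 5.19, and Col7a1, which anchors epithelia to the dermis, by 1.38, at 11.3 ± 4.24 in day 21 and 4.53 ± 1.31 in P0 libraries (SD, n = 4 and 7).

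Among transmembrane collagens, Col17a1, a part of the hemidesmosomes that fix epithelia to their basement membrane, was high at day 21 and low at the other 4 stages. Its level was 4.00, 2.76, 0.859 and 1.93 RBM in ESCs, 1.90, 1.48, 2.63 and 1.04 at day 12 and 94.8, 109.6, 61.7 and 46.9 at day 21. All P0 libraries together held 10 read bases and all E13.5 libraries 26. The log2 fold change was 5.34 ± 0.27 (SE), adjusted p = 1.9e-08, between day 21 and day 12, and 8.43 ± 0.25 (SE), adjusted p = 2.0e-14, between day 21 and P0. Epithelial marker sums were 3727 to 4678 at day 21 and 2791 to 4261 at day 12, and their part in this was not tested. Col25a1, a neuronal collagen needed for motor nerve wiring in mice, had 11.8, 17.1, 22.5 and 5.63 at day 21 and 13.9, 26.1, 33.1 and 34.5 at day 12, against 14.6 to 28.3 (median 17.2) in P0 and 2.51 to 11.6 (median 4.65) in E13.5 cortex. Its fall at day 21 (-0.95 ± 0.35 (SE), adjusted p = 0.0403 on the log2 scale) was lost in 8 alternatives, and day 21 did not differ from P0 beyond the spread between libraries (-0.40 ± 0.27 (SE), adjusted p = 0.168).

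Of 10 laminin chains tested at day 12 against ESCs, 6 rose and 2 fell, with a median log2 fold change of 1.24, where 34.5% of all genes rose and 32.9% fell. All 10 tested were higher at day 21 than in P0 cortex, where 42.2% of all genes were, and for all 10 every day 21 library lay above every P0 library, as in 34.9% of all genes. At day 12 against E13.5, 7 of 9 were higher and none lower, where 40.0% of all genes were higher. The gamma chain Lamc1, shared by most laminins, had 1053, 1079, 649 and 1182 in ESCs, 818, 790.2, 901 and 554 at day 12 and 1097, 920.4, 1256 and 929.9 at day 21, against 128 to 187 (median 155) in P0 and 89.6 to 172 (median 110.1) in E13.5 cortex. Lamb1, its usual beta partner in early basement membranes, had 315, 304, 289.7 and 469.5, 519, 558, 651 and 467 and 721, 599, 877 and 476 over the same culture stages, against 79.6 to 116 (median 102) in P0 and 61.9 to 127 (median 80.1) in E13.5 cortex. ESC and day 12 libraries overlapped for Lamc1, and the lowest culture library of either gene was above the highest cortex library. Log2 fold changes at day 21 against P0 were 2.83 ± 0.11 (SE), adjusted p = 3.3e-13, for Lamc1 and 2.79 ± 0.12 (SE), adjusted p = 1.6e-12, for Lamb1.

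The alpha chain sets which receptors a laminin binds. Lama1, the chain of the earliest embryonic basement membranes and of the pia, had 339, 188, 248 and 219 at day 21 against 30.8 to 61.0 (median 43.6) in P0 cortex, and 225, 275, 163 and 176 at day 12 against 69.3 to 135 (median 78.7) in E13.5 cortex (log2 fold changes 2.52 and 1.43). Lama5, a chain of epithelial and vascular basement membranes, had 455, 422, 176 and 653 in ESCs, 479, 425, 373 and 151 at day 12 and 404, 294, 355 and 312 at day 21, against 4.99 to 12.8 (median 8.71) in P0 and 15.0 to 31.4 (median 24.9) in E13.5 cortex. It did not pass the test between culture stages, and at day 21 against P0 its log2 fold change was 5.49 ± 0.15 (SE), adjusted p = 1.5e-14. Lama5 and Lama1 both fell at P0 against E13.5 (-1.51 ± 0.20 and -0.87 ± 0.17 on the log2 scale).

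Lama3, a chain of the epidermal laminin, was high in ESCs, low at day 12 and high again at day 21. The levels were 111, 96.2, 64.1 and 83.6 in ESCs, 3.80, 2.96, 2.17 and 5.92 at day 12 and 82.7, 46.5, 53.6 and 37.9 at day 21, against 13.2 to 19.4 (median 15.0) in P0 and 0.947 to 1.89 (median 1.31) in E13.5 cortex. Day 12 did not overlap with either of the other culture stages. The log2 fold change was -4.75 ± 0.33 (SE), adjusted p = 1.2e-06, between day 12 and ESCs, and 3.76 ± 0.34 (SE), adjusted p = 4.1e-06, between day 21 and day 12. Lamb3, a beta chain of the same laminin, had 0, 1.99, 0.859 and 0.963 in ESCs, 22.8, 28.5, 12.2 and 9.40 at day 12 and 104, 49.3, 45.8 and 61.7 at day 21, and so was lowest in ESCs.

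Lama2 and Lama4, chains of muscle, mural and endothelial basement membranes, rose through culture. Lama2 had 3 read bases in all ESC libraries, 12.2, 20.7, 7.58 and 10.6 RBM at day 12 and 96.6, 68.5, 85.7 and 64.9 at day 21, against 20.7 to 34.3 (median 26.2) in P0 and 0.147 to 36.6 (median 9.03) in E13.5 cortex. Day 12 and E13.5 libraries overlapped, and their difference (0.28 ± 0.76 (SE), adjusted p = 0.746) changed sign in 4 alternatives. Lama4 had 216, 145, 260.3 and 125 at day 21 and 45.2, 76.3, 54.7 and 101 at day 12, against 35.4 to 54.6 (median 51.5) in P0 and 14.3 to 80.9 (median 33.8) in E13.5 cortex (log2 fold change 1.99, day 21 against P0). Lamc3, a gamma chain found at the pial surface and in vessels, had 73.3 ± 15.4 at day 21 and 21.1 ± 5.88 at P0 (SD, n = 4 and 7) and Lamb2 was at 5.47 ± 1.06 and 1.15 ± 0.638.

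Integrin chains moved in both directions. At day 12 against ESCs 11 of 17 rose and 3 fell, 82.4% of them, where 67.4% of all genes changed. At day 21 against day 12, 6 of 18 rose and 4 fell, 55.6%, where 47.8% of all genes changed. At P0 against E13.5, 6 of 18 rose and 7 fell, 72.2%, under the 81.5% of all genes. Itgb1, the beta chain shared by most matrix-binding integrins, had 100.1, 84.7, 65.1 and 196 RBM in ESCs, 269, 285, 371 and 431 at day 12 and 221, 215, 369 and 192 at day 21, against 73.0 to 94.0 (median 83.0) in P0 and 156 to 248 (median 207) in E13.5 cortex. It was higher at day 12 than in ESCs (1.39 ± 0.27 (SE), adjusted p = 0.00101 on the log2 scale) and lower at P0 than at E13.5 (-1.22 ± 0.08 (SE), adjusted p = 6.3e-11) with no overlap between the cortical stages. Without the second JB6 library of the ESCs the rise of Itgb1 at day 12 was 1.71 (adjusted p = 3.8e-05 by edgeR). Its alpha partners Itga6, a laminin receptor chain, and Itgav, which binds vitronectin and fibronectin, fell with it at P0 (-1.13 ± 0.13 and -0.94 ± 0.08). Itga5, the main fibronectin receptor chain, fell too, with 4.51 to 6.27 (median 4.67) at P0 and 10.2 to 19.1 (median 14.7) at E13.5 (-1.42).

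Itga3 and Itga6, which both pair with Itgb1 to bind laminin, moved apart in cortex. Itga3 had 28.3, 20.7, 21.5 and 124 in ESCs, 375, 292, 338 and 144 at day 12 and 204, 213, 245 and 254 at day 21, and 47.3 to 60.7 (median 59.5) in P0 cortex against 8.84 to 18.7 (median 13.4) in E13.5 cortex. Itga6 had 66.8, 55.4, 17.9 and 86.1, 39.1, 39.4, 63.3 and 41.3 and 32.9, 42.4, 50.1 and 27.0 in culture, and 12.1 to 19.2 (median 13.2) in P0 cortex against 26.6 to 43.8 (median 31.2) in E13.5 cortex. At P0 against E13.5 Itga3 rose (2.11 ± 0.12 (SE), adjusted p = 1.2e-11) and Itga6 fell (-1.13 ± 0.13 (SE), adjusted p = 1.6e-07) by edgeR, and the 2 stages did not overlap for either gene. Itga7, the laminin receptor chain of muscle, rose at P0 as well (3.52, at 8.41 ± 4.45 in P0 and 0.784 ± 0.749 in E13.5 libraries, SD, n = 7 and 6).

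Among collagen receptor chains, Itga11, which binds fibrillar collagen on mesenchymal cells, was highest at day 21, with 58.8, 32.8, 52.4 and 34.2 there and 6.27, 12.03, 3.25 and 5.69 at day 12, against 1.76 to 4.29 (median 2.69) in P0 cortex (log2 fold change 4.00 ± 0.23 (SE), adjusted p = 5.6e-11, day 21 against P0). Itga1 had 3.99, 9.81, 15.5 and 12.9 at day 12 against 12.4 to 33.9 (median 19.4) in E13.5 cortex and was lower in culture there (-0.92 ± 0.24 (SE), adjusted p = 0.00289). Itga2 and Itga10 were also lower at day 12 than at E13.5 (-2.27 and -1.82). The call of Itga2 was lost without the second JB6 library of E13.5, and also without the third. Among chains that bind fibronectin and related ligands, Itga9 had 60.7, 63.9, 105 and 63.0 at day 21 and 104, 112, 113 and 146 at day 12 and fell between them (-0.77 ± 0.15 (SE), adjusted p = 0.00103), and Itga4, with 4.64, 7.79, 2.71 and 0.804 at day 21 and 6.84, 19.3, 13.1 and 17.1 at day 12, fell by 2.00 on the log2 scale (adjusted p = 0.00571 by edgeR).

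Other beta chains differed in direction between culture and cortex. Itgb5, which pairs with Itgav on vitronectin, had 163, 207, 342 and 246 in ESCs, 444, 432, 474 and 354 at day 12 and 504, 457, 505 and 431 at day 21, against 48.9 to 69.2 (median 53.0) in P0 and 4.72 to 26.9 (median 15.5) in E13.5 cortex. Log2 fold changes were 5.10 ± 0.31 (SE), adjusted p = 4.9e-08, at day 12 against E13.5, and 2.00 ± 0.24 (SE), adjusted p = 2.6e-06, at P0 against E13.5. Itgb4, the hemidesmosome beta chain, had 180.1, 116, 139 and 138 at day 21 and 38.7, 36.3, 29.1 and 25.3 at day 12, against 3.87 to 6.01 (median 5.20) in P0 cortex (4.89 ± 0.15 (SE), adjusted p = 2.6e-14, day 21 against P0). Itgb6, an epithelial chain that activates latent TGF-beta, held 2 read bases in all in the ESCs, and its level was 9.87, 14.3, 19.3 and 21.0 at day 12 and 29.1, 10.9, 28.4 and 18.8 at day 21, while P0 cortex held 2 read bases and E13.5 cortex 1, so no fold is given. Itgb8, the chain of neural progenitors and glia that does the same, went the other way, with 3.94, 5.10, 3.38 and 2.09 at day 21 against 7.46 to 12.3 (median 10.01) in P0 cortex and 3.23, 8.15, 3.25 and 3.25 at day 12 against 9.41 to 14.7 (median 11.98) in E13.5 cortex (-1.38 ± 0.21 (SE), adjusted p = 1.4e-05, day 21 against P0).

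Some integrins are chains of leukocyte receptors. Itgam, the alpha chain of the microglial receptor CR3, had 4.13 ± 3.63 at day 21 and 4.96 ± 1.51 in P0 cortex (SD, n = 4 and 7), and rose at P0 against E13.5 (log2 fold change 1.83 ± 0.25 (SE), adjusted p = 2.5e-06). Itgal and Itgb7 were highest in ESCs, with 9.99, 9.96, 7.05 and 6.74 and 18.9, 19.1, 19.4 and 16.8 there, and fell at day 12 (-3.33 ± 0.45 (SE), adjusted p = 8.6e-05, and -3.03 ± 0.26 (SE), adjusted p = 4.1e-06). Itgb2, the beta chain that pairs with Itgal and Itgam, did not exceed 2.00 RBM on average at any stage.

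**Figure D3:**
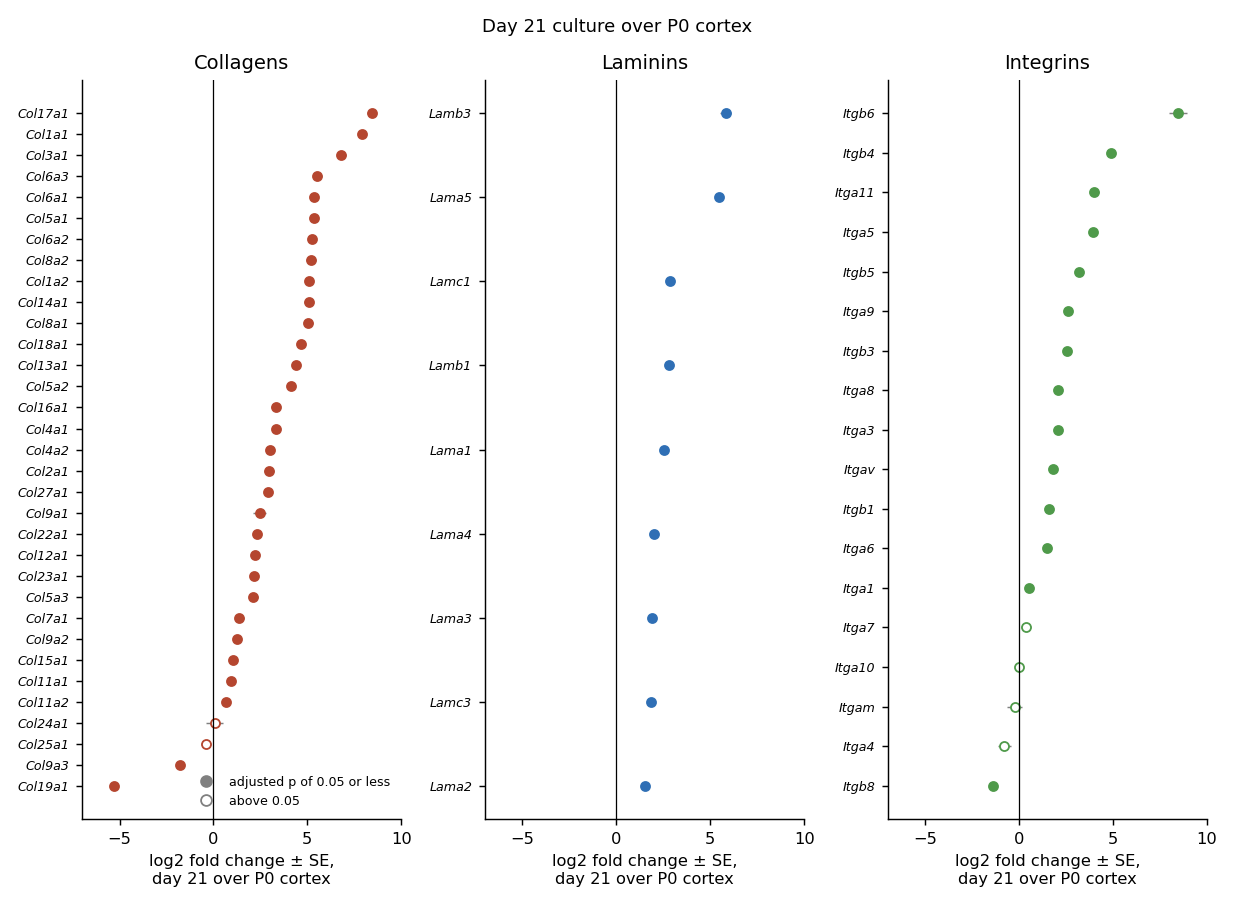
Fitted log2 fold change of day 21 culture over P0 cortex, with its standard error, for 60 members, by family and in order of size, filled where the adjusted p was 0.05 or less. Points right of 0 are higher in culture: 29 of 33 collagens, all 9 laminins drawn and 13 of 18 integrins passed on that side, and Col19a1, Col9a3 and Itgb8 on the other. Of all genes tested, 42.2% passed as higher in culture and 41.6% as lower. The point of Itgb6 rests on 2 read bases in P0 cortex, and its position depends on the prior count.

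Proteins that make, cross-link or bind the matrix were read from fixed lists. Of 22 tested genes for collagen-modifying enzymes and chaperones, 18 were higher at day 21 than in P0 cortex and 1 was lower, where 42.2% and 41.6% of all genes were. The largest log2 fold changes were those of the lysyl oxidases Loxl4 (6.00) and Loxl2 (5.39), which cross-link collagen, and of Pcolce (5.20), an enhancer of procollagen cleavage, and the one that was lower was Adamts3 (-3.69), a procollagen protease. Of 15 tested matrix glycoproteins, 12 were higher, against the same background, led by Postn (5.44), Nid2 (5.06), which links laminin to collagen IV, and Fbln1 (4.61), and Reln, the signal of Cajal-Retzius neurons, was lower (-3.19).

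Between day 21 and day 12, 10 of 15 matrix glycoproteins rose and none fell, and 13 of 22 processing genes rose and 2 fell, where 25.2% of all genes rose and 22.5% fell. Of 13 proteins that link integrins to actin 1 rose, Parva (0.35), and 4 fell, 38.5% of them, under the 47.8% of all genes that changed, with Parvb (-1.40), Lims1 (-0.76) and Ptk2 (-0.64) lowest. Of 12 such genes at day 21 against P0, 9 were higher, where 42.2% of all genes were, led by Lims2 (3.34), and Ptk2, the focal adhesion kinase, was lower (-1.501). Of other receptors, Bcam, which binds Lama5 laminins, and Ddr1, a collagen receptor kinase, were the 2 tested, and both were higher, Bcam by 6.10. All 4 proteases or inhibitors that passed, of 5 tested, were higher at day 21, led by Mmp2 (5.20), a gelatinase.

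The step from day 12 to day 21 was then set against the step from E13.5 to P0 in 1 fit, as the difference of the 2 log2 fold changes. 25 of 59 members differed with the higher value in culture and 9 with the lower, where 51.3% of all genes differed, 29.0% with the higher value in culture and 22.3% with the lower. In all, 57.6% of the members differed. Medians of the difference were 0.78 over the members and 0.11 over all genes. By family, 14 of 32 collagens, 3 of 10 laminins and 8 of 17 integrins were on the higher side and 4, 1 and 4 on the lower.

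Fibrillar collagens held 7 of the 14 collagens on the higher side and none on the lower. That 7 is a part of the collagens that passed and not of those tested. Over all genes tested, 29.0% were on the higher side and 22.3% on the lower. The largest differences on the higher side were those of Col17a1 (6.94 ± 0.73 (SE), adjusted p = 5.0e-08), Col1a1 (3.77 ± 0.55 (SE), adjusted p = 6.9e-06), Col3a1 (3.56 ± 0.79 (SE), adjusted p = 8.9e-04) and Col6a3 (3.53 ± 0.72 (SE), adjusted p = 4.1e-04), in log2 units by edgeR. That of Col17a1 rests on 10 read bases at P0 and 26 at E13.5. On the lower side were the collagen IX chains Col9a1 (-4.04 ± 0.50 (SE), adjusted p = 1.0e-06) and Col9a2 (-2.15 ± 0.23 (SE), adjusted p = 5.1e-08), which fell in culture and rose in cortex, with Col25a1 (-2.62 ± 0.50 (SE), adjusted p = 1.8e-04) and Itga3 (-2.41 ± 0.27 (SE), adjusted p = 1.8e-07). Without the second BJ1 library of E13.5 the difference of Col3a1 was 3.86 and that of Col6a3 3.83, and without the second JB6 library they were 3.22 and 3.16. Lama3 (a difference of 0.33 ± 0.42) and Col4a1 (0.26 ± 0.35) did not pass, and rose at both later stages.

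**Figure D4:**
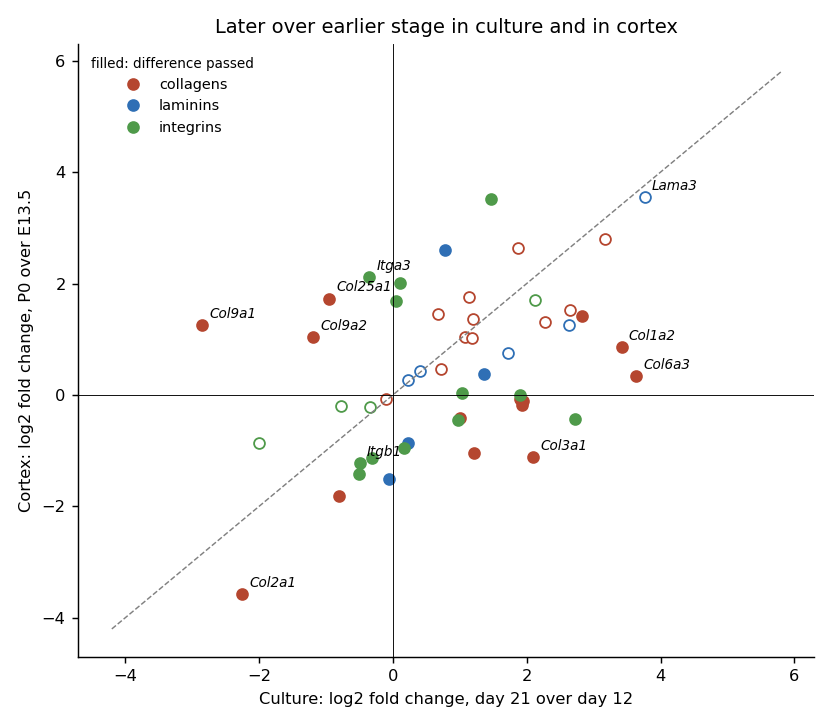
Log2 fold change of day 21 over day 12 in culture (x axis) against that of P0 over E13.5 in cortex (y axis) for the 50 members tested in both, 1 point per gene, filled where the difference between the steps passed, with a dashed line where both are equal. Col3a1, Col1a2 and Col6a3 lie to the right of the line, and Col9a1, Col9a2, Col25a1 and Itga3 to the left, above 0 in cortex and below 0 in culture.

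The B6 share, the percentage of a gene's read bases that carry the B6 letter, was 51.3% to 51.9% on average over all autosomal features at the 5 stages. Summed over the members it was 46.1% ± 0.547 in ESCs, 51.7% ± 1.50 at day 12 and 51.8% ± 1.24 at day 21 (SD, n = 4 each), against 47.8% ± 0.658 in P0 cortex (n = 7) and 48.3% ± 0.948 in E13.5 cortex (n = 6). In ESCs, 15 of 31 members tested passed between the B6 and JF1 alleles, 48.4%, where 44.6% of all genes passed. At day 12 the count was 26 of 54 (48.1%, background 35.9%), and at day 21 it was 34 of 64 (53.1%, background 34.4%). In P0 cortex it was 25 of 55 (45.5%, background 48.2%), and in E13.5 cortex 16 of 44 (36.4%, background 45.9%). By edgeR the share of members thus exceeded the background at day 12 and day 21 and lay near or under it at the other stages. DESeq2 called fewer members, 19 at day 12 and 22 at day 21. These DESeq2 counts were not set against its own share over all genes. Over all stages 66 members were tested at least once and 55 passed at least once, where 72.9% of all genes tested did. Of the 66, 12 passed with the B6 allele higher at one stage and the JF1 allele at another, as 8.57% of all genes did.

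Lamb1 was the 1 member of 22 tested at all 5 stages that passed at each of them, with the JF1 allele higher. Its call at day 12 was lost by DESeq2, with counts divided by 3, and without the first BJ1 library, the second or the first JB6 library of that stage. Its B6 share was 12.95%, 13.3%, 20.9% and 29.8% in the 4 ESC libraries, 48.4%, 48.1%, 45.8% and 50.5% at day 12 and 43.2%, 44.0%, 43.9% and 44.8% at day 21, against 41.1% to 49.4% (median 44.7%) in P0 and 35.3% to 47.9% (median 40.7%) in E13.5 cortex. All 4 ESC libraries lay below the rest.

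Lama3 took the opposite order. The B6 share was 76.0%, 76.8%, 82.3% and 78.8% in ESCs, 60.0%, 56.2%, 64.3% and 70.6% at day 12 and 58.8%, 58.4%, 63.1% and 51.7% at day 21, against 16.9% to 34.2% (median 31.5%) in P0 cortex. ESC and P0 libraries lay on opposite sides of an equal share, in every library. Lama1 and Lama5 were lower on the B6 allele in ESCs (36.7% and 40.5%), and Itga3 and Itga6 higher (70.3% and 65.1%).

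Several chains differed between the cultures and the cortex. Lama4 had a B6 share of 26.5%, 28.6%, 24.7% and 30.2% at day 21 and 27.3%, 28.2%, 23.7% and 28.1% at day 12, against 47.4% to 52.7% (median 50.3%) in P0 and 44.3% to 53.8% (median 46.8%) in E13.5 cortex, with no overlap. Lama2 had 39.4%, 42.4%, 31.95% and 33.2% at day 21 against 47.6% to 61.5% (median 50.0%) in P0 cortex, and Col7a1 2.88%, 4.29%, 8.99% and 7.69% at day 21 against 50.0% to 70.8% (median 59.1%) in P0 cortex. Lama2 and Lama4 both lie on chromosome 10 and Col7a1 on chromosome 9. The authors removed strain differences where the B6 parent of the lines carried other strains' sequence, and whether any were left in these genes was not tested. Lamc3 was on the other side, with 74.9%, 75.2%, 74.6% and 75.5% at day 21 and 75.3%, 71.6%, 74.5% and 72.0% at day 12, against 46.6% to 62.3% (median 58.8%) in P0 and 45.6% to 57.1% (median 49.9%) in E13.5 cortex.

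Among collagens, Col22a1, a collagen of tissue junctions, was low on the B6 allele at each stage after the ESCs, at 38.3% ± 3.71 at day 21, 31.2% ± 1.45 at day 12, 26.9% ± 6.90 in P0 and 24.5% ± 10.7 in E13.5 cortex (SD). Col1a2 had the B6 allele higher, with 62.6% ± 3.09 at day 21 and 65.0% ± 7.68 at day 12, and in cortex 53.3% ± 4.34 at P0, where it did not pass, and 62.0% ± 11.6 at E13.5. The head-to-head pair Col4a1 and Col4a2 lay on opposite sides of an equal share, at 52.0% ± 1.12 and 53.4% ± 1.30 at day 21 against 43.6% ± 1.80 and 45.5% ± 2.70 in P0 cortex. All 4 of these values passed by edgeR, with log2 ratios of 0.12, 0.20, -0.37 and -0.28. The call of Col4a1 at day 21 was lost by DESeq2 and without the first BJ1 library or the second JB6 library, and its share lay close to the average over all autosomal features given above. Col9a1 passed on opposite sides too, at 59.2% at day 21 and 64.0% at day 12 against 36.9% in P0 cortex, and DESeq2 called it at neither day 21 nor P0, where the call was also lost with counts divided by 3 and without the second JB6 library. Among integrins, Itgb5 had mean shares of 39.2% in ESCs, 48.0% at day 12 and 45.9% at day 21, against 42.9% in P0 and 46.5% in E13.5 cortex, and passed in all but the last. The call of Itgb5 at day 12 was lost by DESeq2, with counts divided by 3, and without the first BJ1 or the first JB6 library.

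**Figure D5:**
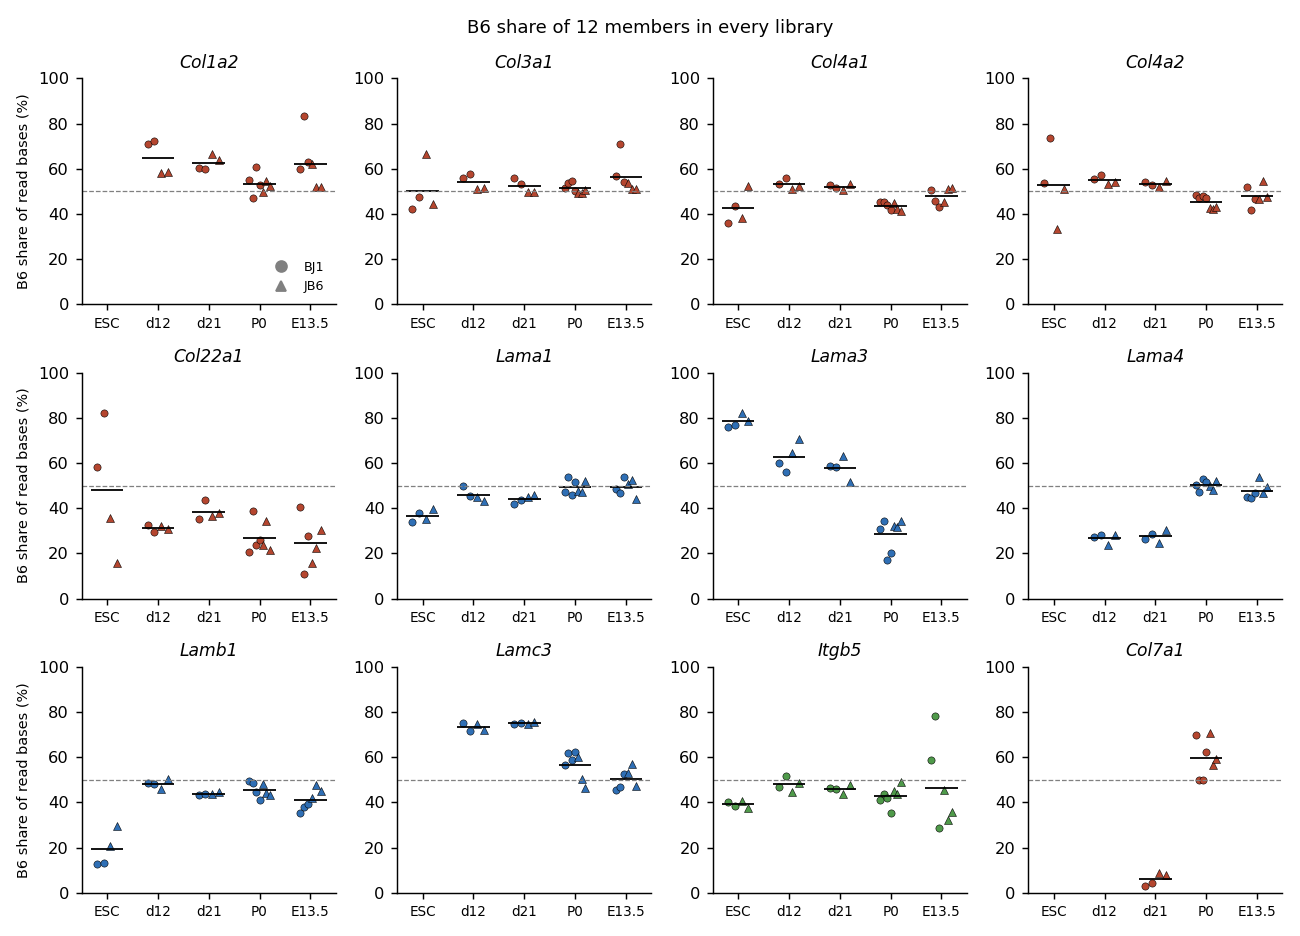
B6 share of read bases (percent, axis 0 to 100, dashed line at an equal share) of 12 members in every library of the stages with enough read bases, circles for BJ1 and triangles for JB6, with a line at the mean. Lamb1 is lowest in ESCs and Lama3 highest there, Lama4 lies near 27.5% in culture and near 50.3% in P0 cortex, and Lamc3 the other way round.

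Parent of origin was tested in the same fits. In ESCs 1 member of 31 passed, Lamb1, with the paternal allele higher (log2 ratio -0.59 ± 0.10 (SE), adjusted p = 0.0463, by edgeR), where 1.40% of all genes passed, 1.05% on the maternal and 0.356% on the paternal side. At day 12, 3 of 54 passed, where 1.78% of all genes passed, 1.30% on the maternal and 0.483% on the paternal side, with the maternal allele higher for Col1a2 (log2 ratio 0.43 ± 0.07 (SE), adjusted p = 3.4e-07), Col3a1 (0.16) and Col9a1 (0.19). At day 21, 6 of 64 passed, where 1.38% of all genes passed, 1.06% on the maternal and 0.326% on the paternal side. Col11a2 (1.36 ± 0.16 (SE), adjusted p = 8.2e-08), Lamb3 (0.41), Col6a3 (0.15), Col3a1 (0.15) and Lamc1 (0.12) were higher on the maternal allele and Col1a2 (-0.15 ± 0.03 (SE), adjusted p = 8.4e-04) on the paternal one. The call of Col1a2 at day 21 was lost by DESeq2 and without the first BJ1 library, the second or the first JB6 library, and that of Lamb1 in ESCs without either BJ1 library. Col9a1 at day 12 lost its call in each of the 7 alternatives, and by DESeq2 the 1 call left at day 12 was Col1a2 and the 1 left at day 21 Col11a2. In cortex no member passed by edgeR or by DESeq2, where 0.548% of all genes passed at P0 (0.231% maternal, 0.317% paternal) and 0.490% at E13.5 (0.220% maternal, 0.270% paternal) by edgeR. At an unadjusted p under 0.05, 7 of 31 members passed in ESCs, 12 of 54 at day 12 and 10 of 64 at day 21, and 2 of 55 at P0 and 3 of 44 at E13.5. The share of all genes at that unadjusted p was not computed, so these counts say nothing particular about the members.

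In culture each cross is represented by its own line, so cross and line cannot be told apart. Col11a2 had a B6 share of 48.3%, 50.0%, 14.3% and 10.5% at day 21, with both BJ1 libraries near equal and both JB6 libraries low, and of 39.7% to 52.5% (median 46.4%) in P0 cortex. The call for Lamb1 in ESCs was lost when either BJ1 library was left out. DESeq2 kept 1 of the 3 calls at day 12, Col1a2, and 1 of the 6 at day 21, Col11a2.

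Some members had few read bases. Col10a1, Col6a4, Col6a5, Col6a6, Itgad and Itgb2l were each listed at fewer than 5 stages, with at most 37 read bases in any stage. Of the 71 members listed at all 5 stages, 44 had their highest mean at day 21, 12 at day 12, 6 in ESCs, 5 in P0 and 4 in E13.5 cortex. The 4 highest at E13.5 were integrin chains, and the 6 highest in ESCs were 2 laminins and 4 integrins. The share of all genes with their highest mean at each stage was not computed, so these counts say nothing particular about the members.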

How the data were processed

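Allele-resolved RNA-seq libraries from 25 hybrid samples at 5 stages were analysed, and the libraries of non-hybrid E14 cells were not analysed here. Libraries were made with a stranded mRNA kit, as the labels' protocols state. The authors deposited raw counts: for each gene and allele, the sense-strand read bases summed over strain differences, with SAMtools mpileup 0.1.18 and the refFlat annotation, per the file headers. CASAVA 1.8.2, Novoalign, HTSeq, edgeR and the build mm9 are named in the submitters' processing notes. Where genes overlap, the authors joined their names in 1 feature, and no member is among these. The authors' description states 6252 removed strain differences in one place and 37985 in another, and which is right is not known. A read over several strain differences adds several read bases, so they are not independent molecules.

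Mitochondrial genes held 10.6% to 22.0% of the read bases of a library. Between libraries of a stage and cross, chi-square per gene was 5.16 to 94.5, taken over read bases. As 1 read can add several read bases, these values cannot separate differences between libraries from the sampling of reads. Groups came from the labels. Levels were tested with edgeR 4.0.16 in R 4.3.3 (TMM scaling, robust quasi-likelihood, terms for stage and cross), each pair of stages in its own fit and the difference between the 2 maturation steps in a fit of 4 stages. Alleles were tested with 2 columns per library and terms for library, strain and parent. SEs were computed as the size of the log2 fold change over the square root of F. Genes averaging under 20 read bases per library were left out, and p-values were adjusted over all genes tested. The fits were tested on simulated data. Alternatives were DESeq2 1.42.0, other scalings, floors and models, counts divided by 3, single crosses, and leaving out libraries. Sequences came from RefSeq tables of GRCm38.p6.

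Members and gene lists were chosen with earlier results of these data known. Named were, for each comparison of levels, up to 6 members each way by size among those past the threshold with a mean of 100 read bases or more, up to 4 each way for B6 against JF1 with the same mean and for the difference of steps, every member past the threshold for parent of origin, up to 3 genes per other list and direction, and 13 members whatever their result. Results of some genes are not reported here. Other members named were chosen after their values were seen.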

Additional observations from a re-analysis of the deposited data

Results flagged for a closer look

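Of 190 groups of 4 to 7 libraries, 23 held 1 library whose gap to the next was large for the range of its group (Dixon's test). Chance gives about 5% for independent groups. These groups reuse the same libraries, and the family shares hold the same genes, so the count cannot be judged by that rate. In ESCs the second JB6 library was the highest for the collagen share (0.0987% of read bases) and the integrin share (0.0936%), and in RBM for Col4a1 (291), Col4a2 (235), Lamb1 (469.5), Lama1 (210.3), Itga3 (124), Col12a1 (17.9), Col5a2 (13.9) and Itga1 (10.2). The same library had the highest epithelial, mural and endoderm marker sums of the ESCs and the lowest pluripotency marker sum.

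At day 12 the second BJ1 library was the highest for the collagen share (0.678%) and Col6a3 (92.9), the first JB6 library for Itgav (120.0) and Itga6 (63.3), and the second JB6 library the lowest for the laminin share (0.158%). At day 21 the first JB6 library was the highest for Itgb1 (369) and Itga9 (105), and the second JB6 library the lowest for Col5a1 (907) and Col15a1 (32.6). In P0 cortex the third JB6 library was the highest for Itgb5 (69.2) and Lama3 (19.4), and the second JB6 library the lowest for Itga3 (47.3) and Col9a2 (11.01).

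The step from day 12 to day 21 differed from that from E13.5 to P0, by the test of the difference itself in edgeR, for 8 named members. The difference in log2 fold change was 6.94 for Col17a1, 3.77 for Col1a1, 3.56 for Col3a1 and 3.53 for Col6a3, with the higher value in culture. It was -4.04 for Col9a1, -2.62 for Col25a1, -2.41 for Itga3 and -2.15 for Col9a2.

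In 3 members the B6 share lay above 50% in every library of one stage and below 50% in every library of another, and this difference was not tested. Lama3 had a mean of 78.5% in ESCs and 28.5% in P0 cortex, and Itgav 60.6% in ESCs and 44.0% in E13.5 cortex. Col4a1 had 53.2% at day 12 and 43.6% in P0 cortex.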

How the results depend on the processing

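Of 151 named values 137 were past the threshold, 109 of these kept call and direction in every alternative run for them, and none changed direction in any. Over 2797 alternative values of named members, 112 lost their call, 23 gained one and 14 changed sign, the last all for values not past the threshold. A floor of 100 read bases gave 30 calls for day 12 against ESCs, in place of 50, and 18 for P0 against E13.5, in place of 38, since fewer members were tested. Without a floor the parent of origin calls were 2 in ESCs and 1 at E13.5. Between B6 and JF1, DESeq2 called 22 members at day 21, where edgeR called 34, and 13 at P0, where edgeR called 25. By parent of origin it called 1 at day 12 and 1 at day 21, where edgeR called 3 and 6. Counts divided by 3 gave 13 between B6 and JF1 at P0. For these alternatives other than the floor of 100, the cause was not tested. Leaving out 1 library gave 43 to 50 calls for day 12 against ESCs, 41 to 45 for day 21 against day 12, 35 to 39 for P0 against E13.5, 47 to 50 for day 12 against E13.5, 55 to 57 for day 21 against P0 and 33 to 38 for the difference of steps. Between B6 and JF1 it gave 15 to 17 in ESCs, 22 to 24 at day 12, 29 to 32 at day 21, 19 to 24 at P0 and 14 to 16 at E13.5. By parent of origin it gave 0 to 6 in ESCs, 1 to 2 at day 12, 1 to 3 at day 21, 0 to 0 at P0 and 0 to 1 at E13.5. The ESC library whose absence gave 6 was the first JB6 library, and those whose absence gave 0 were the 2 BJ1 libraries. Deviations of same-numbered libraries from their group had correlations of -0.419 to 0.210. Where a cross had 2 libraries their deviations mirror each other, so this check cannot tell whether the numbers pair samples. With the replicate block the counts were 47, 45, 36, 47, 57 and 33 in the order of the comparisons of levels above, and with crossed numbers 51 for day 12 against ESCs and 45 for day 21 against day 12. The crossed numbers, and leaving out 3 E13.5 libraries together, were chosen after seeing the data. With the block Lamb1 (adjusted p = 0.104), Lamc1 (0.0771) and Itga7 lost their calls at day 12 against ESCs, Col9a3 at day 21 against day 12, Lama2 (0.106) and Col27a1 at P0 against E13.5, Col1a2 (0.0956), Col3a1 (0.0509) and Col6a3 at day 12 against E13.5, and Lama4 in the difference of steps. It gained Lamc1 at day 21 against day 12, Col15a1 at day 12 against E13.5, and Itga4 and Itga7 at day 21 against P0. Log2 fold changes that changed sign were all of members not past the threshold. At day 12 against ESCs, Lama1 was at -0.29 in JB6 alone, and Itgav at -0.15 to 0.65 without 1 library. At day 21 against day 12, Lama5 was at 0.038 in a joint fit of 5 stages, 0.33 in JB6 alone and -0.32 to 0.13 without 1 library, and Itgav at -0.048 to 0.33 without 1 library. In JB6 alone at P0 against E13.5, Col1a2 was at -0.11 and Lamb1 at -0.029. At day 12 against E13.5, Lama2 was at -0.016 in the joint fit, -1.19 in JB6 alone and -0.19 to 0.77 without 1 library. Low members are limited by depth: 42 of the 73 members listed in ESCs were under the floor there.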
